A study of Homo sapiens with 9 samples.

Results

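The APOBEC3 deaminases and ADAR were followed as a group of 8 genes in TE13 cells after knockdown of the lncRNA PARylator (LINC00885). The members were chosen by symbol, with no threshold on their values (APOBEC3A, APOBEC3B, APOBEC3C, APOBEC3D, APOBEC3F, APOBEC3G, APOBEC3H and ADAR), and each symbol matched 1 row of the 60605 genes in the deposited table. TE13 is an established cell line of esophageal squamous cell carcinoma (ESCC). All cells were transfected with an siRNA, either control siRNA or 1 of the PARylator-directed siRNAs, siRNA.1 and siRNA.2, and each of these 3 conditions was sequenced as 3 biological replicates of poly(A)+ RNA, 9 libraries in all. The comparisons with control siRNA ask how the transcriptome changed when PARylator was targeted, and a direct comparison of siRNA.2 with siRNA.1 asks where the siRNAs differed. As the cells are a single line, the values describe TE13 and no other ESCC cells.

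APOBEC3 enzymes remove an amino group from cytosine in single-stranded nucleic acid and leave uracil behind. They restrict viruses and retroelements, and in tumors of squamous and other epithelia APOBEC3A and APOBEC3B are known as sources of cytosine mutations. ADAR acts on double-stranded RNA, where it converts adenosine to inosine and thereby keeps the cell's own duplexes from being sensed as foreign, and its longer isoform is known to be induced by interferon.

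Counts on genes lay between 15337917 and 17899074 per control library, with 15374616 to 17762752 for siRNA.1 and 19213164 to 22559998 for siRNA.2. Mitochondrial genes took 7.46% to 7.66%, 4.99% to 5.06% and 5.54% to 5.56% of these counts, respectively. PARylator itself was barely covered, with 6 to 12 counts per control library, 2 to 5 per siRNA.1 library and 0 to 4 per siRNA.2 library. Its log2 fold change was -1.21 (SE 0.95, adjusted p = 0.376, edgeR) with siRNA.1 and -2.33 (SE 1.01, adjusted p = 0.0659) with siRNA.2, so the knockdown was not called at this depth. The paper reported the siRNA knockdown of PARylator in ESCC cells from qPCR, a separate measurement. All 10 squamous epithelial markers on a fixed list were above 1 FPKM (counts scaled by exonic length and library total) in every condition, with sums of 719 to 733, 641 to 665 and 629 to 649 FPKM in control, siRNA.1 and siRNA.2 libraries. Single markers changed, as 3 of the 10 rose and 5 fell with each siRNA. The called share was 80% with each, against 30.3% and 30.9% of all tested genes. Those that rose were KRT6A (78.7 to 102 and 118 FPKM), EPCAM (99.0 to 137 and 136 FPKM) and DSG3 (10.3 to 15.8 and 12.6 FPKM). Among those that fell, the basal keratin gene KRT5 went from 142 to 39.97 and 55.8 FPKM, and SOX2, a transcription factor of squamous cells, from 11.7 to 3.30 and 6.42 FPKM. The part of these changes in the members' values was not tested.

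The 7 APOBEC3 genes lie side by side on the plus strand of chromosome 22, from chr22:38952741 for APOBEC3A to chr22:39104067 for APOBEC3H (GRCh38), whereas ADAR lies on the minus strand at chr1:154581695-154628013. The APOBEC3 genes are related and share sequence to differing degrees, which bears on how reads are divided among them. Of the 50-base words in the annotated transcripts (GENCODE release 44), 86.2% of those of APOBEC3D, 30.1% of APOBEC3B and 20.8% of APOBEC3A also occurred in another gene. The share was 12.1% for APOBEC3F, 6.15% for APOBEC3G, 1.36% for APOBEC3C, 1.35% for ADAR and 0% for APOBEC3H. Most of the APOBEC3D share came from a readthrough gene of the same locus (ENSG00000284554), which held 81.1% of its words. APOBEC3F held 8.77% and APOBEC3B 6.03% of the APOBEC3D words.

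The longest identical coding run of APOBEC3A and APOBEC3B had 196 bases, and the stretches around it are printed because these paralogs changed in opposite directions. They span chr22:38959665-38961600 (exons 3 and 4 of APOBEC3A) and chr22:38989589-38991545 (exons 5 and 6 of APOBEC3B), 5′ to 3′ on the plus strand with the intron left out, and capitals mark the 5 bases at which the genes differ.
APOBEC3A: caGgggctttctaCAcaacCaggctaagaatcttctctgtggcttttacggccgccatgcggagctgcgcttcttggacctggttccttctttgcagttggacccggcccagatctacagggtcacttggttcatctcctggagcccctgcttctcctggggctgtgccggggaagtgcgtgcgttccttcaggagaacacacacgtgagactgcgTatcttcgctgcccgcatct
APOBEC3B: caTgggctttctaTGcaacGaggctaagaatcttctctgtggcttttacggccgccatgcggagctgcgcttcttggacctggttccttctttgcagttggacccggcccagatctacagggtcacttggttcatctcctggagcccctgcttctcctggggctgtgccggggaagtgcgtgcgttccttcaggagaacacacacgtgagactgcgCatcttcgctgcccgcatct
A read that lies wholly within the lower-case run has the same sequence in both genes.

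APOBEC3D and APOBEC3F shared a longer run, of 222 bases, which is printed because it bears on how far the low APOBEC3D values can be read. The stretches span chr22:39029474-39031909 (exons 5 and 6 of APOBEC3D) and chr22:39049536-39052289 (exons 5 and 6 of APOBEC3F), in the same orientation, with capitals at the 4 bases that differ.
APOBEC3D: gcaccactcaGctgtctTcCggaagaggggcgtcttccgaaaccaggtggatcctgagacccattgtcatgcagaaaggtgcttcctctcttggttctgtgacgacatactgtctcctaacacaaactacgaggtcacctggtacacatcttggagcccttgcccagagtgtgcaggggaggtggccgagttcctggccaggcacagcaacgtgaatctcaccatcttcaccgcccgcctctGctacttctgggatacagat
APOBEC3F: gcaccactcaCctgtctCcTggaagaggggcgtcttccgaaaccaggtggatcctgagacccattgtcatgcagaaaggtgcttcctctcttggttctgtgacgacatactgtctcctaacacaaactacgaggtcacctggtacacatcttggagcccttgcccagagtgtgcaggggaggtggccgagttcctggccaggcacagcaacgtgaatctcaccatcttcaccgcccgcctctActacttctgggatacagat
Among the other pairs, the run was 172 bases for APOBEC3B and APOBEC3D, 142 for APOBEC3F and APOBEC3G, 131 for APOBEC3B and APOBEC3F, and 86 for APOBEC3A and APOBEC3G. APOBEC3H shared at most 20 bases with any other family member.

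In control cells, APOBEC3B was the most abundant member at 76.7 ± 4.70 FPKM (SD, n = 3), followed by ADAR at 55.5 ± 1.06 and APOBEC3C at 39.9 ± 1.12 FPKM. These 3 genes did not overlap over the libraries. APOBEC3F (2.59 ± 0.330 FPKM) and APOBEC3G (2.46 ± 0.235 FPKM) came next and overlapped each other, at a level 15.4 times below APOBEC3C for the higher of the pair. APOBEC3H, APOBEC3D and APOBEC3A were each below 1 FPKM and overlapped one another in turn. With either siRNA, ADAR stood first, 1.92 times above APOBEC3B with siRNA.1 and 1.68 times in siRNA.2 libraries.

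**Figure D1:**
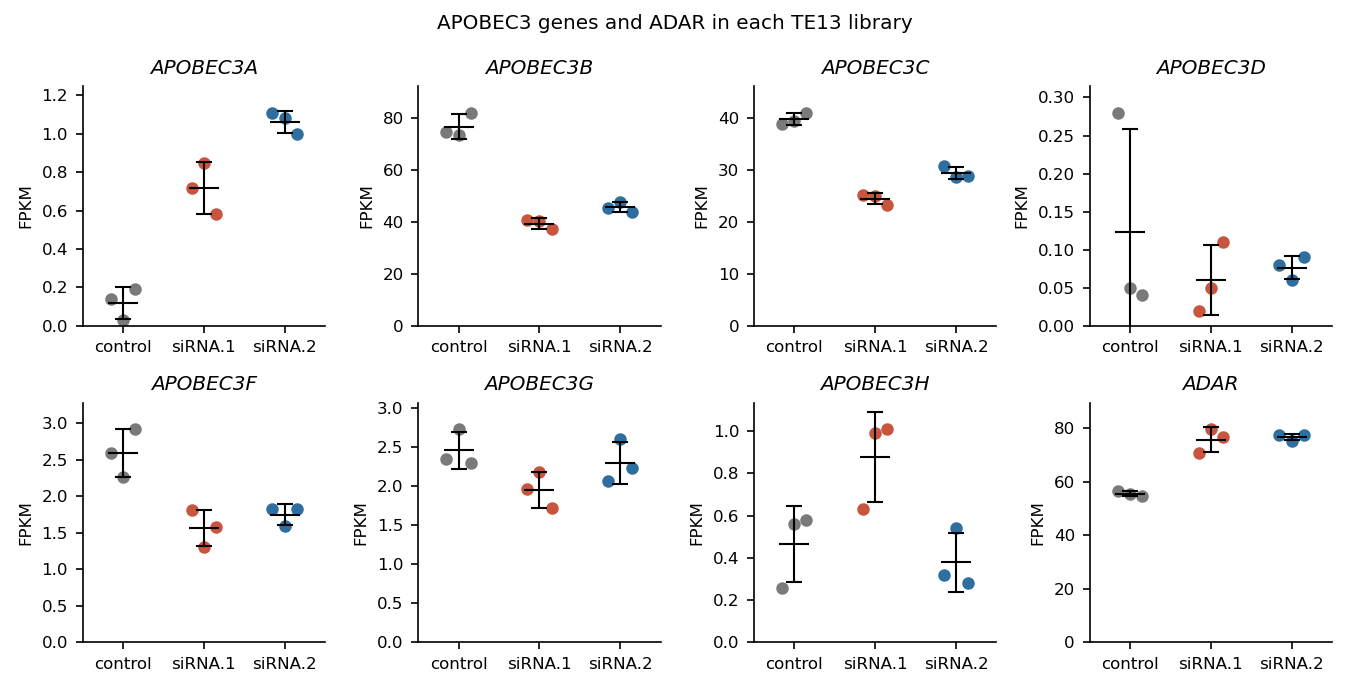
FPKM of the 8 members (vertical axis, starting at 0 and scaled per gene) in control, siRNA.1 and siRNA.2 libraries; points are libraries, and bars are mean ± SD, n = 3, cut at 0 for APOBEC3D. APOBEC3B, APOBEC3C and APOBEC3F were lower and APOBEC3A and ADAR higher in every siRNA library than in every control library.

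Of the members, 7 averaged 0.1 FPKM or more and were tested, and APOBEC3D fell short of this filter. With siRNA.1, 2 of these 7 rose (APOBEC3A and ADAR) and 4 fell (APOBEC3B, APOBEC3C, APOBEC3F and APOBEC3G) at an adjusted p under 0.05 from edgeR, against 15.0% of all 21395 tested genes that were called higher and 15.2% called lower (30.3% in all). With siRNA.2, the same 2 rose and 3 fell (APOBEC3B, APOBEC3C and APOBEC3F), against 15.8% called higher and 15.1% called lower (30.9% in all). Libraries did not overlap control, upward, for 3 members in siRNA.1 and 2 in siRNA.2 libraries (20.7% and 21.1% of all tested genes) and, downward, for 4 and 3 members (17.0% and 18.5%). The median log2 fold change of the 7 was -0.36 and -0.32, while the medians of all tested genes were -0.00056 and 0.0040. The comparisons share the control libraries and are not independent of each other.

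**Figure D2:**
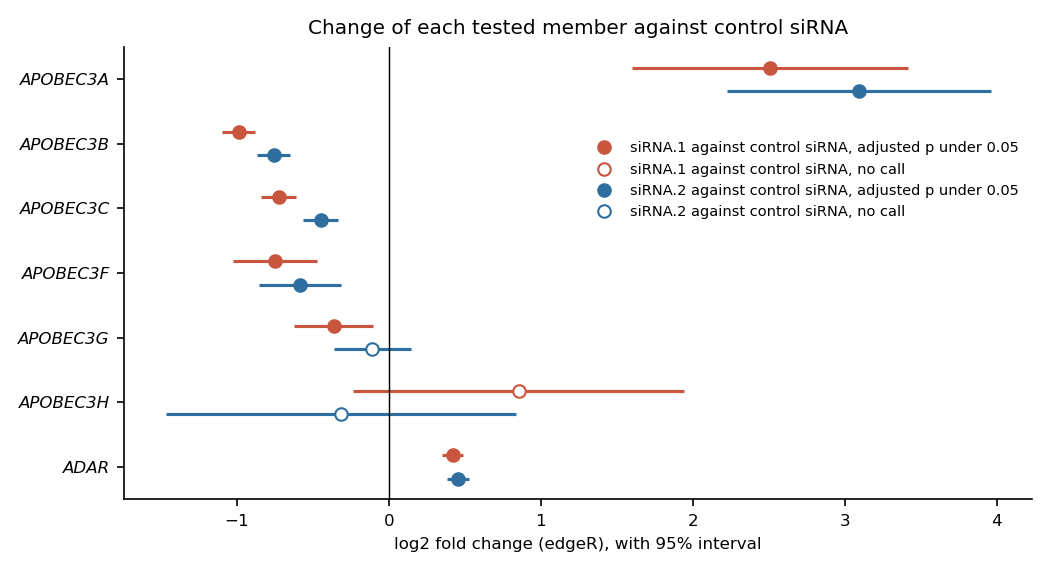
log2 fold change against control siRNA (horizontal axis, edgeR) of the 7 tested members (vertical axis), with 95% intervals; filled points had an adjusted p under 0.05 and open points did not. APOBEC3A lay above 2 and APOBEC3B, APOBEC3C and APOBEC3F below 0 with both siRNAs.

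APOBEC3B, a nuclear enzyme with paired deaminase domains, was the member with the largest drop in FPKM. Its FPKM was 74.52, 73.49 and 82.09 in the control libraries, 40.80, 40.24 and 37.16 with siRNA.1, and 45.26, 47.88 and 43.95 with siRNA.2. The 3 groups were fully separated, with control highest and siRNA.1 lowest. APOBEC3B fell by 49.6% with siRNA.1 (log2 fold change -0.99, SE 0.056, adjusted p = 7.88e-67, edgeR) and fell by 40.9% with siRNA.2 (log2 fold change -0.76, SE 0.055, adjusted p = 2.09e-41). In bulk RNA, fewer cells with a transcript and less of it per cell cannot be told apart. APOBEC3B-AS1, an antisense lncRNA that covers 12.9% of the exonic bases of APOBEC3B, held 21 counts in all 9 libraries, against 16225 for APOBEC3B.

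APOBEC3C, the small enzyme with 1 deaminase domain and weak activity, followed a like course. It stood at 38.96, 39.50 and 41.12 FPKM in control, at 25.25, 25.12 and 23.33 FPKM with siRNA.1, and at 30.79, 28.74 and 28.84 FPKM with siRNA.2. Again no group overlapped another, and siRNA.1 libraries were lowest. APOBEC3C fell by 39.6% (log2 fold change -0.73, SE 0.060, adjusted p = 6.17e-32, edgeR) and fell by 26.7% (log2 fold change -0.45, SE 0.058, adjusted p = 3.24e-13), respectively.

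APOBEC3F and APOBEC3G are cytoplasmic restriction factors that are packaged into retroviral particles. APOBEC3F was at 2.60, 2.26 and 2.92 FPKM in control, 1.81, 1.31 and 1.58 with siRNA.1, and 1.83, 1.59 and 1.83 with siRNA.2. Both siRNA groups lay below all control libraries and overlapped each other. APOBEC3F fell by 40.6% with siRNA.1 (log2 fold change -0.75, SE 0.14, adjusted p = 1.26e-06, edgeR) and fell by 33.2% with siRNA.2 (log2 fold change -0.58, SE 0.14, adjusted p = 0.000152).

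APOBEC3G was at 2.35, 2.73 and 2.30 FPKM in control, 1.96, 2.18 and 1.72 with siRNA.1, and 2.07, 2.60 and 2.23 with siRNA.2. The siRNA.1 libraries were below all control libraries, whereas siRNA.2 libraries overlapped them. With siRNA.1, APOBEC3G fell by 22.3% (log2 fold change -0.36, SE 0.13, adjusted p = 0.0236, edgeR), and the call was lost without control replicate 2 (adjusted p = 0.158), without siRNA.1 replicate 3 (adjusted p = 0.165) and with DESeq2 (adjusted p = 0.0503) or limma (adjusted p = 0.101). In the siRNA.2 comparison the log2 fold change was -0.11 (SE 0.13, adjusted p = 0.589).

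APOBEC3A, a potent mutator with 1 deaminase domain and best known from myeloid cells and keratinocytes, changed in the other direction. Its counts were 5, 1 and 8 in control, 30, 31 and 24 with siRNA.1, and 52, 49 and 53 with siRNA.2, or 0.12 ± 0.0819, 0.717 ± 0.135 and 1.06 ± 0.0569 FPKM (SD, n = 3). Every siRNA library was above every control library, and siRNA.2 libraries were above siRNA.1 libraries. APOBEC3A rose 5.69-fold with siRNA.1 (log2 fold change 2.51, SE 0.46, adjusted p = 6.58e-07, edgeR) and 8.54-fold with siRNA.2 (log2 fold change 3.09, SE 0.44, adjusted p = 4.66e-11). The fold is imprecise because the control counts were few, with 95% intervals of 1.60 to 3.42 and 2.23 to 3.96 on the log2 scale.

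The deposited model of APOBEC3A ended at chr22:38992778 and thus covered APOBEC3B (chr22:38982347-38992804) up to that position, while in GENCODE release 44 APOBEC3A ended at chr22:38963184. The deposited APOBEC3A model held 2359 exonic bases, against 2011 in release 44, so the shared words given above describe the release 44 model. How reads shared by APOBEC3A and APOBEC3B were assigned is not given in the sources used here. Against control, APOBEC3A went up in the libraries in which APOBEC3B went down. From siRNA.1 to siRNA.2, the mean FPKM of both was higher, 0.717 to 1.06 for APOBEC3A (not called) and 39.4 to 45.7 for APOBEC3B. The part of shared reads in these values was not tested. Relative to APOBEC3B, APOBEC3A stood at 0.153% ± 0.0999 of its FPKM in control, 1.81% ± 0.279 in siRNA.1 and 2.33% ± 0.108 in siRNA.2 libraries (SD, n = 3).

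Markers of blood cells were low, and some of them rose in the libraries in which APOBEC3A rose. Of 10 listed markers, 6 were tested, and 4 rose and 1 fell with each siRNA. The called share of the 6 was 83.3% with each, against 30.3% and 30.9% of all tested genes. The marker that fell was LAPTM5, a lysosomal membrane protein of blood cells and the most abundant of the list in control, which went from 4.95 to 3.00 and 2.40 FPKM (log2 fold change -0.75, adjusted p = 3.50e-07, and -1.06, adjusted p = 1.36e-13, edgeR). The summed FPKM of the list was 5.54 to 6.63 in control, 7.89 to 8.81 for siRNA.1 and 7.41 to 8.73 for siRNA.2, and LYZ, the lysozyme gene of myeloid cells, went from a mean of 0.317 to 2.79 and 3.08 FPKM. PTPRC, which marks all leukocytes, had means of 0.0333, 0.153 and 0.147 FPKM. FCER1G rose from 0.19 to 1.07 and 1.47 FPKM, and CSF1R from 0.49 to 0.897 and 0.757 FPKM. TYROBP was not called (0.09, 0.26 and 0.373 FPKM). The B cell marker MS4A1 was at 0 in all 9 libraries, whereas CD79A, also of B cells, averaged 0.0133, 0.0867 and 0.0333 FPKM. The T cell marker CD2 was at 0 with both siRNAs, and CD3E, also of T cells, averaged 0.00667, 0.02 and 0 FPKM. Of the fibroblast and endothelial markers, 4 of 10 were tested, 0 rose and 3 fell with each siRNA, with sums of 3.43 to 3.99, 2.22 to 2.53 and 1.99 to 2.26 FPKM. Calls made up 75% of these 4 with each siRNA, against 30.3% and 30.9% of all tested genes. The part of these markers' cell types in the APOBEC3A values was not tested.

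APOBEC3H, an RNA-bound enzyme with common unstable variants, had 5, 11 and 13 counts in control, 14, 19 and 22 with siRNA.1, and 8, 13 and 8 with siRNA.2. The siRNA.1 libraries exceeded all control libraries in FPKM (0.877 ± 0.214 against 0.467 ± 0.179, SD, n = 3), whereas siRNA.2 (0.380 ± 0.140 FPKM) overlapped control. No change passed the test. The log2 fold change was 0.85 (SE 0.55, adjusted p = 0.267, edgeR) with siRNA.1 and -0.32 (SE 0.59, adjusted p = 0.756) with siRNA.2.

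APOBEC3D, another restriction factor with paired domains, held 11, 2 and 2 counts in control, 1, 2 and 5 with siRNA.1, and 4, 3 and 5 with siRNA.2. The first control library was the highest, and the groups overlapped. Fitted without the filter on low values, its log2 fold change was -0.98 (SE 1.05, adjusted p = 0.628, edgeR) and -0.68 (SE 1.01, adjusted p = 0.725). A readthrough gene that joins APOBEC3C and APOBEC3D (ENSG00000284554) covers 83.2% of the exonic bases of APOBEC3D and was listed with 0 counts in every library. The part of this overlap in the low APOBEC3D level was not tested.

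The summed FPKM of the 7 APOBEC3 genes was 122 ± 5.995 in control, 69.1 ± 3.17 in siRNA.1 and 80.7 ± 2.23 in siRNA.2 libraries (SD, n = 3). APOBEC3B and APOBEC3C made up nearly all of this sum in each condition. The share of APOBEC3B went from 62.7% ± 0.788 to 57.0% ± 0.297 and 56.6% ± 1.29, and that of APOBEC3C from 32.6% ± 0.747 to 35.5% ± 0.0804 and 36.5% ± 1.51. APOBEC3A rose from 0.0966% ± 0.0635 of the sum to 1.03% ± 0.159 and 1.32% ± 0.0426, so that its gain in FPKM offset little of the loss of APOBEC3B.

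**Figure D3:**
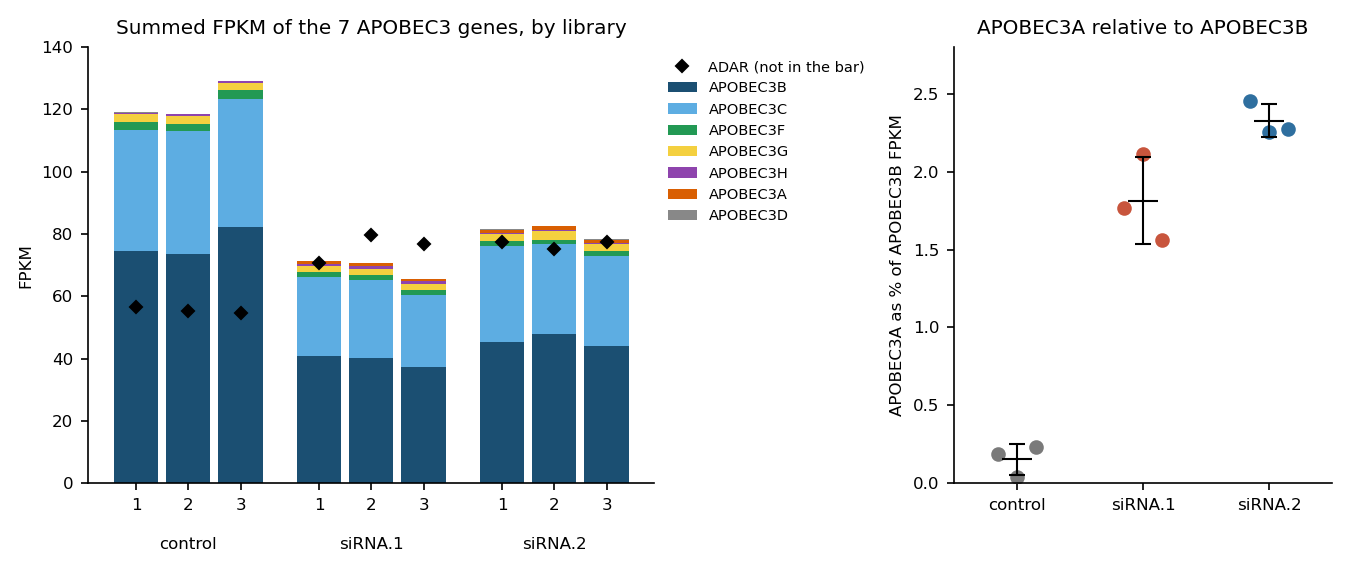
Left, FPKM of the 7 APOBEC3 genes stacked for each of the 9 libraries (horizontal axis), with ADAR as black diamonds outside the stack; right, APOBEC3A as a percentage of APOBEC3B FPKM per library, with mean ± SD, n = 3. The stack averaged 122 FPKM in control, 69.1 in siRNA.1 and 80.7 in siRNA.2 libraries, while the percentage went from a mean of 0.153% to 1.81% and 2.33%.

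ADAR, the RNA-editing enzyme, rose with both siRNAs. Its FPKM was 56.70, 55.27 and 54.64 in control, 70.71, 79.61 and 76.82 with siRNA.1, and 77.37, 75.19 and 77.45 with siRNA.2. All siRNA libraries were above all control libraries, and the siRNA groups overlapped. The increase was 33.7% with siRNA.1 (log2 fold change 0.42, SE 0.036, adjusted p = 6.35e-30, edgeR) and 37.0% with siRNA.2 (log2 fold change 0.45, SE 0.036, adjusted p = 3.65e-35). ADAR was at 0.455 ± 0.0283 of the summed APOBEC3 FPKM in control, and at 1.10 ± 0.0931 (siRNA.1) and 0.950 ± 0.0393 (siRNA.2) of it (SD, n = 3). Gene-level counts do not separate the interferon-inducible isoform of ADAR from the constitutive one among its 33 annotated transcripts.

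Promoter windows of RefSeq (GRCh38.p14, 250 bases before to 50 after a start) were given for 2 of the 8 members, 3 windows for ADAR and 1 for APOBEC3H, and were searched on both strands. The ADAR windows at chr1:154627922-154628221 and chr1:154627948-154628247 largely overlap, and the other lies at chr1:154608748-154609047. Which ADAR isoform starts at each was not examined. The interferon-response motif (GAAA, any 2 bases, GAAA), the gamma-activated motif (TTC, any 3 bases, GAA) and the cell-cycle motif (TTTGAA) were found in none of these windows, and occurred in 3.57%, 7.66% and 15.2% of all 35116 windows, respectively. The NF-kB motif (GGG, any 5 bases, CC) had 4 matches in the APOBEC3H window, of which several overlapped, and none in the ADAR windows, and occurred in 58.7% of all windows. These matches describe letters in a window and say nothing of binding.

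Between siRNA.2 and siRNA.1, 2 of the 7 tested members were called higher with siRNA.2 (APOBEC3B and APOBEC3C) and 0 lower, against 6.10% and 6.06% of all tested genes (12.2% in all). Libraries of the siRNAs did not overlap for 3 members that were higher with siRNA.2 and 1 that was lower (11.3% and 13.1% of all tested genes). APOBEC3B was 17.3% higher with siRNA.2 (log2 difference 0.23, SE 0.057, adjusted p = 0.00106, edgeR), and APOBEC3C was 21.2% higher (log2 difference 0.28, SE 0.060, adjusted p = 0.000107). With limma, APOBEC3B missed the threshold (adjusted p = 0.0521). The difference was 0.58 (95% interval -0.083 to 1.25, adjusted p = 0.322, edgeR) for APOBEC3A and 0.17 (-0.11 to 0.45, adjusted p = 0.562) for APOBEC3F, and was 0.25 (-0.00295 to 0.51, adjusted p = 0.240) for APOBEC3G. For APOBEC3H it was -1.17 (-2.26 to -0.086, adjusted p = 0.179, edgeR). For ADAR, the difference was 0.035 (-0.035 to 0.10, adjusted p = 0.649).

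Most other genes that restrict viruses were higher with both siRNAs. Of 12 other restriction factors, 10 rose with each siRNA, and 2 fell with siRNA.1 and 1 in the siRNA.2 comparison, with a median log2 fold change of 1.70 and 1.57. Calls made up 100% and 91.7% of the list, against 30.3% and 30.9% of all tested genes. IFIT1, which binds viral RNA ends, went from 11.3 to 105 and 89.2 FPKM (log2 fold change 3.19 and 2.97, SE 0.049 for both), and MX1, a dynamin-like GTPase that traps viral nucleocapsids, from 7.80 to 38.7 and 36.5 FPKM (2.28 and 2.22, SE 0.042 for both). SAMHD1, which depletes deoxynucleotides, rose by 0.81 and 0.87 (SE 0.045 for both) on the log2 scale. SLFN11, which cleaves transfer RNA, fell with both siRNAs (log2 fold change -0.46 and -0.49, SE 0.14 for both, edgeR). Among the deaminases, APOBEC3A was the only member whose log2 fold change exceeded the median of this list with each siRNA.

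The sensors and effectors of double-stranded RNA that ADAR editing restrains rose as well. Of 12 listed genes, 8 rose and 2 fell with siRNA.1 and 9 rose and 2 fell with siRNA.2, with a median log2 fold change of 0.99 and 1.04. The called share was 83.3% and 91.7%, against 30.3% and 30.9% of all tested genes. IFIH1, the sensor MDA5, went from 10.01 to 34.1 and 34.3 FPKM (log2 fold change 1.74 and 1.77), ZBP1, a receptor of Z-form nucleic acid, from 0.733 to 3.27 and 2.98 FPKM (2.13 and 2.01), and OAS1, a synthetase of oligoadenylates, from 3.62 to 19.1 and 16.3 FPKM (2.37 and 2.16). EIF2AK2, the kinase PKR, rose by 0.17 (adjusted p = 0.000431, edgeR) and 0.24 (adjusted p = 7.23e-08). MAVS, the adaptor of RNA sensing, fell (log2 fold change -0.41 and -0.47).

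Of 16 genes of interferon signalling, 7 rose and 3 fell with siRNA.1, and 6 rose and 5 fell with siRNA.2. The median log2 fold change was 0.16 and -0.02. Calls made up 62.5% and 68.8% of the list, against 30.3% and 30.9% of all tested genes. IFNL1, a type III interferon of epithelial cells, went from a mean of 0.50 to 4.18 and 4.35 FPKM (log2 fold change 3.01, SE 0.37, and 3.08, SE 0.37). Receptor-side genes were among those that fell, including the kinase gene TYK2 (-0.42 and -0.47) and the receptor gene IL10RB (-0.42 and -0.58). IRF1, a transcription factor of the same response, fell by 0.31 and by 0.24 on the log2 scale.

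Known regulators of APOBEC3B changed in both directions. Of 15 genes, 4 rose and 3 fell with siRNA.1, and 5 rose and 3 fell with siRNA.2, with medians of 0.028 and -0.021. Calls made up 46.7% and 53.3% of the list, against 30.3% and 30.9% of all tested genes. PRKCA, the protein kinase C whose activation induces APOBEC3B through non-canonical NF-kB, went from 4.70 to 2.48 and 2.89 FPKM (log2 fold change -0.95, SE 0.081, adjusted p = 1.93e-29, and -0.71, SE 0.079, adjusted p = 4.59e-18, edgeR), and it was lower with siRNA.1 than with siRNA.2 (siRNA.2 minus siRNA.1, 0.23). NFKB2, the non-canonical NF-kB subunit, rose by 0.29 with each siRNA. RELB, another NF-kB gene of the list, was not called (0.028, adjusted p = 0.875, and -0.028, adjusted p = 0.870, edgeR). Of the cell-cycle regulators, LIN9 (0.50 and 0.46) and E2F1 (0.42 and 0.37) rose, and FOXM1 fell (-0.22 and -0.16). The part of PRKCA and the other regulators in the APOBEC3B values was not tested.

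Other nucleic acid deaminases showed no common course. Of 16 listed, 9 were tested, and 2 rose and 2 fell with each siRNA (medians -0.0044 and -0.14). The called share was 44.4% with each siRNA, against 30.3% and 30.9% of all tested genes. APOBEC1, APOBEC4 and ADAD1 were listed at 0 in all 9 libraries, and ADARB1, the second active adenosine deaminase of messenger RNA, had a log2 fold change of -0.26 (adjusted p = 0.135, edgeR) and -0.30 (adjusted p = 0.0649). CDA, which deaminates free cytidine, rose with siRNA.1 (0.53, adjusted p = 0.0355) and fell with siRNA.2 (-0.76, adjusted p = 0.00254). DCTD, which deaminates deoxycytidylate, rose with both (0.20 and 0.35), and RBM47, a cofactor of cytosine editing in RNA, fell with both (-0.40 and -0.71).

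Some of the genes that act on the uracil and abasic sites left by APOBEC3 enzymes differed between the siRNAs. Of 15 genes, 0 rose and 7 fell with siRNA.1, whereas 4 rose and 2 fell with siRNA.2, and in the direct comparison 4 were higher, 0 lower and 11 not called with siRNA.2, against 12.2% of all tested genes called in either direction. Compared with control, 46.7% and 40% of the list were called, against 30.3% and 30.9% of all tested genes. UNG, the main uracil glycosylase, went from 27.3 FPKM in control to 24.9 with siRNA.1 (log2 fold change -0.16, adjusted p = 0.0346, edgeR) and 35.7 with siRNA.2 (0.37, adjusted p = 1.00e-08), a difference of 0.54. The glycosylase TDG fell with both siRNAs (-0.31 and -0.46), and so did the abasic endonuclease APEX2 (-0.30 and -0.42). DUT, which keeps uracil out of the nucleotide pool, did not pass the test with siRNA.1 (-0.012, adjusted p = 0.892) and rose with siRNA.2 (0.24, adjusted p = 1.80e-06). Of 12 proteins that bind edited or APOBEC3-bound RNA, 1 rose and 3 fell with siRNA.1, and 3 rose and 0 fell with siRNA.2. Their called share, 33.3% and 25%, was near the 30.3% and 30.9% of all tested genes.

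The genes next to the members were examined for changes along the chromosome. Within 250 kb of the APOBEC3 cluster, 22 of 30 genes were tested, of which 1 rose and 7 fell with siRNA.1 and 1 rose and 6 fell with siRNA.2 (medians -0.26 and -0.32, or -0.11 and -0.27 with genes at 3 counts or fewer in a group set to their bound). The called share of these neighbours, 36.4% and 31.8%, was near the 30.3% and 30.9% of all tested genes. NPTXR, a neuronal pentraxin receptor, fell by 0.99 and by 1.07 on the log2 scale, SUN2, a nuclear envelope protein, fell by 0.49 and by 0.23, and GTPBP1, a GTP-binding protein, rose by 0.56 and 0.41. Within 250 kb of ADAR, 8 of 17 genes were tested, and 3 rose and 1 fell with each siRNA. The called share of the 8 was 50% with each, against 30.3% and 30.9% of all tested genes. IL6R, the interleukin-6 receptor, rose with siRNA.1 (0.34) and fell with siRNA.2 (-0.61).

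The genes whose FPKM ran most closely with each member over the 9 libraries were taken among the 11863 genes that averaged 1 FPKM or more. For APOBEC3B they included PRXL2A (Pearson r = 0.994 on log2(FPKM + 0.1)) and CHP1 (0.993), and for APOBEC3C HOOK1 (0.991) and SWAP70 (0.988). For ADAR they were ZW10 (0.999), SAMD9 (0.994) and WDR43 (0.991). For APOBEC3F the closest was CALM3 (0.964) and for APOBEC3G RN7SL608P (0.927). APOBEC3B and APOBEC3C ran together (r = 0.977), and APOBEC3B and ADAR ran against each other (r = -0.951). These correlations describe 9 libraries that share 3 conditions, and any gene that differs between the conditions enters them with that difference.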

How the data were processed

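Poly(A)+ RNA of TE13 cells was sequenced in 3 libraries each of control siRNA, siRNA.1 and siRNA.2. According to the methods and the submitters' processing notes, reads were checked with FastQC, aligned with STAR to the human genome (GRCh38) and counted per gene with featureCounts; software versions, annotation release, strand setting and the treatment of reads shared by genes are not given in the sources used here. The authors deposited a table with the raw, unnormalized count of every gene in each library and its FPKM. Recomputed from counts, deposited exonic lengths and library totals, 0 FPKM values differed by over 0.01 from the deposited ones. Exonic length makes FPKM comparable between genes, but shared sequence and the choice of gene model do not cancel out.

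Counts were tested with edgeR 4.0.16 (quasi-likelihood, TMM) in R 4.3.3 on 21395 genes that averaged 0.1 FPKM or more, in 1 fit of all 9 libraries without covariates, with Benjamini-Hochberg adjustment over all tested genes and a threshold of 0.05. Libraries of a condition differed by more than sampling noise (chi-square per degree of freedom of 2.73 to 4.40). The common biological coefficient of variation was 0.0566. Alternatives were DESeq2 1.42.0, limma 3.58.1 with pseudocounts of 0.1 and 1, other filters and scalings, a replicate block and each library left out in turn. Scripts were tested on simulated counts. The members, the gene lists and the tests were chosen with earlier results of these data known. Named genes were the members, the 3 genes closest to each member that averaged 1 FPKM or more, and up to 4 genes of each list with the largest mean change among those at this level that were called against control with both siRNAs; list genes outside this rule were named for their role after their values were seen. Sequences came from GENCODE release 44 and RefSeq. Protein sequences were not analysed here, and a few genes that the rule picked are not reported here.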

Additional observations from a re-analysis of the deposited data

Results flagged for a closer look

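The response to the 2 siRNAs differed for 2 members by a test of the difference itself in edgeR. In siRNA.2 libraries, APOBEC3B exceeded its siRNA.1 level by 0.23 on the log2 scale (SE 0.057, adjusted p = 0.00106), and APOBEC3C by 0.28 (SE 0.060, adjusted p = 0.000107). In each case all 3 siRNA.2 libraries lay above all 3 siRNA.1 libraries, and both groups lay below control. The cause was not tested. No test for a single library that stands apart was made, since groups of 3 are too small for it.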

How the results depend on the processing

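The calls of APOBEC3A, APOBEC3B, APOBEC3C, APOBEC3F and ADAR against control siRNA kept their direction and side of the threshold in each alternative that tested them and with each library left out, whereas the call of APOBEC3G with siRNA.1 did not (values in the report). APOBEC3A was not tested at a minimum mean of 1 FPKM, where 5 and 4 members were called instead of 6 and 5. On log2(FPKM + 1) in limma, which understates low genes, the change of APOBEC3A was 0.62 and 0.88. Between the siRNAs, limma with pseudocounts of 0.1 and 1 called 1437 and 1414 genes instead of 2603, and 1 member instead of 2 with each, APOBEC3B being lost (adjusted p = 0.0521 and 0.0556); 41.4% of the 1437 calls were higher, against 50.2% in edgeR. The difference of ADAR between the siRNAs, not called in any fit, lay between -0.010 (without siRNA.1 replicate 1) and 0.065 with each library left out. The cause was not tested.

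As shares of raw counts rather than of FPKM, which do not correct for length, APOBEC3B took 52.1%, 46.3% and 45.8% of the APOBEC3 sum in control, siRNA.1 and siRNA.2, APOBEC3C 37.8%, 40.3% and 41.2%, APOBEC3F 4.85%, 5.08% and 4.83%, APOBEC3G 4.76%, 6.49% and 6.52%, and APOBEC3H 0.209%, 0.683% and 0.252%.

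With each library left out in turn, calls over all genes ranged from 5615 to 6502 with siRNA.1, from 5692 to 6731 with siRNA.2 and from 1906 to 2696 between the siRNAs. Replicate numbers did not pair the libraries, as the correlations of same-numbered libraries lay between -0.155 and 0.0971. With the replicate block, 6215, 6358 and 2342 genes were called instead of 6472, 6614 and 2603. Counts of APOBEC3A in control and of APOBEC3D and APOBEC3H in all libraries were few, so their folds have wide intervals.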
